A study of Mus musculus with 2 samples.

Results

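Immune checkpoints and costimulatory molecules were followed as 10 genes in tumor-infiltrating leukocytes, chosen by symbol from the 31053 genes listed. They comprised the ligands *Cd274* (PD-L1), *Pdcd1lg2* (PD-L2), *Cd80* and *Cd86*, the costimulatory receptor of antigen-presenting cells *Cd40*, and the receptors *Pdcd1* (PD-1), *Ctla4*, *Havcr2* (TIM-3), *Lag3* and *Tigit*. Leukocytes positive for CD45 were sorted from melanomas 4 days after injection of *Ptgs*-deficient tumor cells into C57BL/6 hosts aged 8 weeks, and profiled by 3' single-cell RNA sequencing, with 16000 cells loaded per library. Control hosts were untreated. NK cell-depleted hosts received 200 µg of anti-NK1.1 (clone PK136) and 30 µg of anti-asialo GM1 per mouse on days 0 and 2. Each group was 1 library of pooled tumors, to which the study's methods state that parental melanoma cells were added. The genotype label of both samples reads wildtype tumor cells, whereas the titles and the series design name the knockout, so that loss of *Ptgs* rests on the latter. The deletion lies in the tumor cells, and leukocyte transcripts give no check of it.

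T cells read antigen together with a second signal. CD80 and CD86 on antigen-presenting cells give that signal through CD28, and CTLA-4, which is carried in large amounts by regulatory T cells, competes for the same ligands. PD-L1 and PD-L2 restrain T cells through PD-1, whereas CD40 on dendritic cells and macrophages is engaged by CD40 ligand on helper T cells. TIM-3, LAG-3 and TIGIT are further inhibitory receptors, and TIM-3 is also known on myeloid cells.

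After filtering, 5292 of 6115 deposited cells were kept in the control library and 4506 of 5536 in the NK cell-depleted library, with 24810009 and 23245982 UMIs and a median of 4170 and 4893 UMIs per cell. A UMI stands for 1 captured transcript, and CPM is the number of UMIs of a gene in 1000000 UMIs of the cells named. Cells fell into 31 clusters, of which 25 were named for 10 cell classes from marker genes. These names were rebuilt here, with naming thresholds chosen once the clusters were known. Monocyte/macrophage-like cells numbered 3473 and 3041, and T-like cells 246 and 176, in control and NK cell-depleted tumors. NK-like cells numbered 520 and 1, which checks the depletion label. The libraries shared 7 deposited and 5 filtered cell barcodes. Since each group was 1 library, no test is given. Intervals are exact 95% intervals that cover counting error only, not the variation between tumors, and a difference was called when the CPM ratio was at least 1.5-fold with an interval that left out 1, among genes with at least 20 UMIs in the class.

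*Cd274* and *Pdcd1lg2* are neighbours on chromosome 19, with 22823 bases between them, and *Cd274* had the pattern most like that of *Pdcd1lg2* across clusters. Pearson's r of log2(CPM + 5) was 0.668 over 54 pairs of cluster and library, which share libraries and depth. No other of the 9522 genes compared reached it. The reverse did not hold, as *Pdcd1lg2* was not among the 5 genes most like *Cd274*. Those were *Hilpda* (r = 0.724), *Cpeb4*, *Osbpl8*, *Mgat4a* and *Rnf19a* (r = 0.679). The bases just before the RefSeq start of each gene (GRCm38.p6, plus strand) are shown because both genes were called higher in control tumors in some myeloid cells. The first is chr19:29367188-29367437, inside the annotated span of *Cd274*, which runs from 29362107 to 29388095. The second is chr19:29410669-29410918, just before the span of *Pdcd1lg2*, which runs from 29410919 to 29472927.

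Cd274: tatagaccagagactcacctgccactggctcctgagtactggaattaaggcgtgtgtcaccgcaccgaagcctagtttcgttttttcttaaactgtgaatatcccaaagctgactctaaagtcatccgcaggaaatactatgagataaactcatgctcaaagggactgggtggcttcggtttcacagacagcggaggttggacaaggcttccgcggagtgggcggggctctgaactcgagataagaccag
Pdcd1lg2: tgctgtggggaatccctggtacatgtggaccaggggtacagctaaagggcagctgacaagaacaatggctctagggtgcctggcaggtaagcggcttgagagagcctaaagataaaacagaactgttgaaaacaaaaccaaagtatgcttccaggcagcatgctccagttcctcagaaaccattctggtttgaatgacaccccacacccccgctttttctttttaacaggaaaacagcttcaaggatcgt

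All bases are in lower case, since no stretch is singled out here. RefSeq promoters were matched for 7 of the 10 genes (*Cd274*, *Pdcd1lg2*, *Cd80*, *Pdcd1*, *Ctla4*, *Havcr2* and *Tigit*).

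Transcripts of the ligands and *Cd40* lay almost wholly in myeloid cells, and so did those of the receptor *Havcr2*. Of the UMIs of the 4 ligands and *Cd40* together, 97.0% (96.5 to 97.4%) lay in myeloid cells in the control library and 98.8% (98.5 to 99.1%) in the NK cell-depleted library. Myeloid cells held 91.1% and 96.0% of the UMIs of all genes. *Cd86* gave the most UMIs to the sum, 2418 in control and 3246 in NK cell-depleted tumors. *Pdcd1lg2* and *Cd274* were less wholly myeloid than the sum. In control, NK-like and T-like cells held 15 and 6 of the 177 *Pdcd1lg2* UMIs, and 56 and 30 of the 1241 *Cd274* UMIs. Unnamed clusters whose best marker list was myeloid were counted as myeloid. Unnamed clusters 27 and 30, whose best lists were T and NK, were counted on neither side, which lowers the lymphocyte shares. For the 5 receptors together, 30.5% of UMIs in control and 19.0% in NK cell-depleted tumors lay in T-like, NK-like and B-like cells. Given the myeloid share of all UMIs, these lymphocyte classes held less of all UMIs than of receptor UMIs in both libraries. T-like, NK-like and B-like cells made up 4.65%, 9.83% and 0.945% of control cells. In NK cell-depleted tumors they made up 3.91%, 0.0222% and 0.821%. *Havcr2* accounted for most receptor UMIs outside these classes, as 99.2% of its 789 UMIs in control and 99.4% of its 685 UMIs in NK cell-depleted tumors were myeloid. *Lag3* was 80.2% myeloid in control and 92.2% in NK cell-depleted tumors, of 91 and 51 UMIs, and was below the myeloid share of all UMIs past counting error in control alone. *Ctla4* was the lymphoid receptor, with 82.1% of 474 UMIs and 68.0% of 256 UMIs in the named lymphocyte classes. The unnamed cluster 30, which held NK and T cell markers, carried 26 and 58 further *Ctla4* UMIs. *Pdcd1* was split, with 46.2% and 50.9% of only 26 and 53 UMIs in myeloid cells. *Tigit* gave 3 and 2 UMIs in all cells, and no level of it is read.

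**Figure D1:**
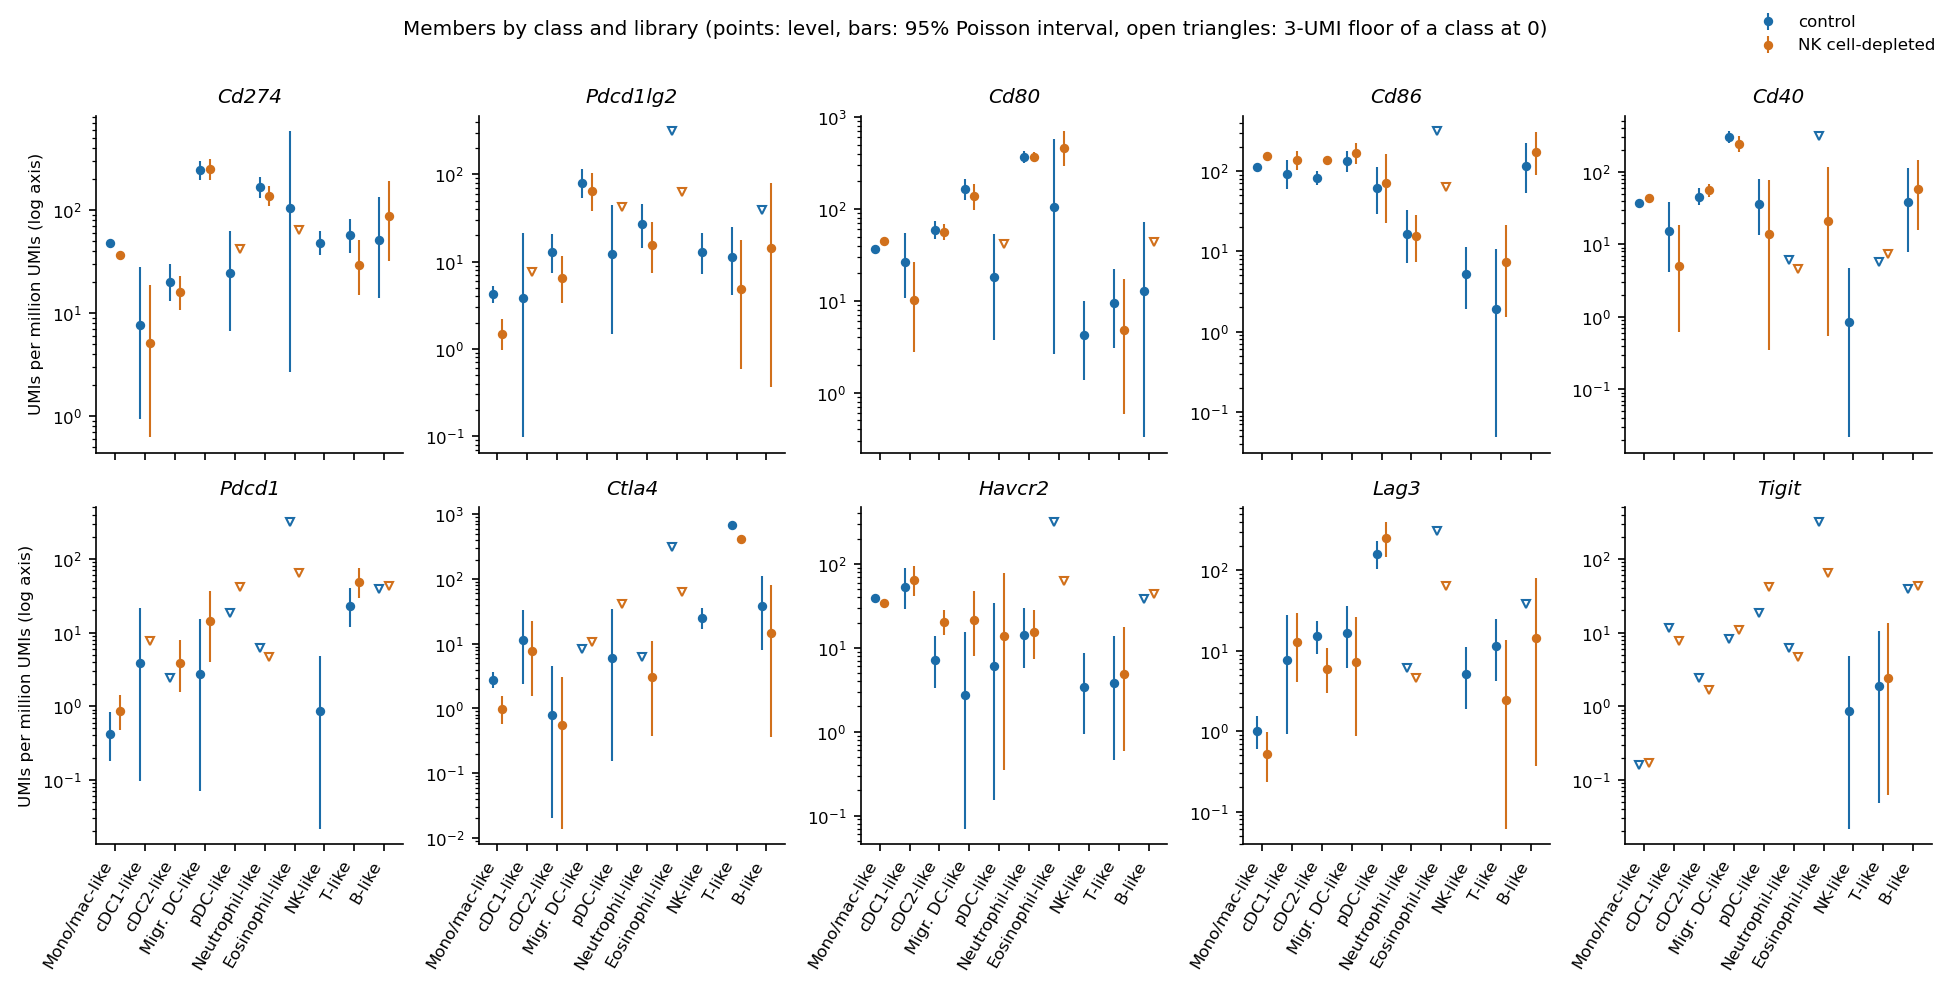
Level (CPM) of each of the 10 genes by cell class (rows of points) in the control and NK cell-depleted library, 1 panel per gene, with exact 95% intervals for counting error. *Cd40* peaks in migratory dendritic cell-like cells (305 and 245 CPM), *Cd80* is high in neutrophil-like cells (371 CPM in both) and *Ctla4* in T-like cells (678 and 419 CPM).

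Among ligands, *Cd274* was highest of the named classes in migratory dendritic cell-like cells in both libraries, at 242 CPM in control and 248 CPM in NK cell-depleted tumors. These cells carry the genes of dendritic cells that leave for the lymph node and numbered 62 and 48. A UMI of *Cd274* was found in 56.5% and 47.9% of them, at median depths of 5602 and 5343 UMIs, against 6.99% and 6.94% of cDC2-like cells at 5138 and 6210 UMIs. Neutrophil-like cells followed at 166 and 137 CPM. Their small cluster 23 alone stood above migratory dendritic cell-like cells, at 617 and 1078 CPM, and held 40 of the 81 control and 43 of the 89 NK cell-depleted *Cd274* UMIs of neutrophil-like cells. The difference between the 2 classes was past counting error in both libraries, whereas the next classes could not be ordered in the NK cell-depleted library. NK-like cells of control tumors held 56 *Cd274* UMIs (47.9 CPM), close to the 48.0 CPM of monocyte/macrophage-like cells there.

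*Cd40* stood highest in migratory dendritic cell-like cells by a wide margin, at 305 CPM in control and 245 CPM in NK cell-depleted tumors. The next class, cDC2-like cells in control, was at 45.8 CPM, and cDC2-like cells of NK cell-depleted tumors were at 55.8 CPM. Neutrophil-like cells gave 0 *Cd40* UMIs in both libraries, from 412 and 492 shallow cells with medians of 1157 and 1295 UMIs, and T-like cells gave 0 as well. The genes most like *Cd40* over the 54 cluster and library pairs were *Cd83* (r = 0.836), *Ccdc88a*, *Cd74*, *Ly86* and *Cd86* (r = 0.805).

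*Cd80* reached its highest level per UMI in granulocytes, at 371 CPM in neutrophil-like cells of both libraries from 181 and 241 UMIs. By number most *Cd80* UMIs lay in monocyte/macrophage-like cells, which held 692 of 1064 in control and 781 of 1307 in NK cell-depleted tumors. A *Cd80* UMI was found in 31.1% of control and 33.9% of NK cell-depleted neutrophil-like cells in spite of their low depth, against 0.385% of the 520 control NK-like cells at a median of 2094 UMIs. Only 4 control and 16 NK cell-depleted neutrophil-like cells reached the depth of 2000 UMIs used for thinning, too few to compare thinned shares. The 71 eosinophil-like cells of NK cell-depleted tumors reached 466 CPM from 22 UMIs, which neutrophil-like cells could not be told from. The 12 control eosinophil-like cells held 1 UMI. The genes most like *Cd80* were *Ptgs2*, the host gene of COX-2, at r = 0.856, then *Lilra6*, *Slc7a11*, *Il1b* (r = 0.820) and *Gm14548*.

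*Cd86* was spread more evenly over antigen-presenting cells. In control tumors its level ran from 81.1 CPM in cDC2-like cells to 132 CPM in migratory dendritic cell-like cells, and no neighbours in that order differed past counting error. In NK cell-depleted tumors migratory dendritic cell-like cells were at 166 CPM, monocyte/macrophage-like cells at 154 CPM and cDC2-like cells at 135 CPM. T-like cells held 1 and 3 *Cd86* UMIs. *Cd86* was most like *Pld4* (r = 0.880), *Gm6377*, *Fgd2*, *Ly86* and *Plekho1*.

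Depletion of NK cells was compared first within monocyte/macrophage-like cells, the class that held most ligand transcripts. *Pdcd1lg2* was higher in control tumors, whereas *Cd274* leaned the same way by less than 1.5-fold and *Cd80*, *Cd86* and *Cd40* leaned the other way. Of the 9 genes with enough UMIs, 2 were called, both higher in control, *Pdcd1lg2* and *Ctla4*. Over all 11839 genes measured in the class, 9.05% were called, 6.22% higher and 2.83% lower in control. The median log2 ratio of control over NK cell-depleted was 0.20 for the 9 genes and -0.01 for all genes. The class was not made of the same cells in both libraries. Its clusters 1 (led by *Gpnmb*), 3 (led by *Pf4*) and 6 (led by *Dcstamp*) held more of the control cells, and cluster 2 (led by *Ly6c2*) more of the NK cell-depleted cells, so that the ligands, *Cd40* and *Havcr2* are also given by cluster or with equal cluster weights. NK markers summed to 71.3 CPM in control and 18.3 CPM in NK cell-depleted cells of this class, with 10 and 4 of 10 markers detected. The part of such transcripts in the results was not tested.

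*Pdcd1lg2* held 81 UMIs in control and 26 in NK cell-depleted monocyte/macrophage-like cells, or 4.25 and 1.49 CPM. The control level was 2.85-fold higher (1.82 to 4.63). It rested on few cells, as a UMI was found in 1.84% of control and 0.658% of NK cell-depleted cells, against 2.88% of control NK-like cells at a median of 2094 UMIs. Cluster 6, led by *Dcstamp*, held 46 of the 81 control and 13 of the 26 NK cell-depleted UMIs. Within it *Pdcd1lg2* was at 11.6 and 6.93 CPM, a ratio of 1.67 (0.89 to 3.38) that was not called. When clusters were given equal weights the log2 ratio was 1.14 and still called, compared with 1.49 over the class. In migratory dendritic cell-like cells *Pdcd1lg2* was at 79.7 and 64.8 CPM, with intervals that overlapped.

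*Cd274* held 916 UMIs in control and 640 in NK cell-depleted monocyte/macrophage-like cells, or 48.0 and 36.6 CPM. The ratio of 1.31 (1.18 to 1.45) was past counting error and short of 1.5-fold, and with equal cluster weights its log2 turned from 0.39 to -0.16. The clusters did not move together. Of the 8 clusters with enough UMIs, *Cd274* was higher in control in 4 and lower in 4, with 3 called higher and 1 called lower.

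The largest of these ratios was in cluster 2, led by *Ly6c2*, a gene of inflammatory monocytes. In these cells *Cd274* was at 40.5 CPM in control (87 UMIs in 368 cells) and 8.92 CPM in NK cell-depleted tumors (42 UMIs in 793 cells), 4.54-fold higher in control (3.11 to 6.72). A *Cd274* UMI was found in 48 of the 368 and 32 of the 793 cells at similar depth, with medians of 5576 and 5705 UMIs, and in 5.98% and 1.64% after each cell was thinned to 2000 UMIs. In the broader cluster that matched it at a clustering resolution of 0.5, the log2 ratio was 1.48 rather than 2.17. Among the 5 genes with enough UMIs in the *Ly6c2*-led cluster, *Cd274* was called higher and *Havcr2* lower in control, where 8.44% of all 9280 genes were called. *Cd274* was also called higher in control in cluster 5, led by *Ly6a*, at 18.1 against 6.50 CPM (2.78-fold, 1.11 to 7.88), and in cluster 7, led by *Ccl8*, at 22.1 against 12.9 CPM (1.71-fold, 1.07 to 2.74).

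Other clusters had the opposite direction. In cluster 6, led by *Dcstamp*, *Cd274* was at 47.7 CPM in control (189 UMIs in 434 cells) and 76.8 CPM in NK cell-depleted tumors (144 UMIs in 198 cells), a ratio of 0.62 (0.50 to 0.78) that was called lower. In cluster 1, led by *Gpnmb*, *Cd274* gave 278 UMIs in 793 control and 198 UMIs in 400 NK cell-depleted cells, with a CPM ratio of 0.74 (0.61 to 0.89) that was not called. The neutrophil-like cluster 23, led by *Gm5483* and *Hcar2*, held *Cd274* at 617 and 1078 CPM (40 and 43 UMIs in 54 and 33 cells), with a called ratio of 0.57 (0.36 to 0.90). Over all neutrophil-like cells the ratio was 1.21 (0.88 to 1.65).

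**Figure D2:**
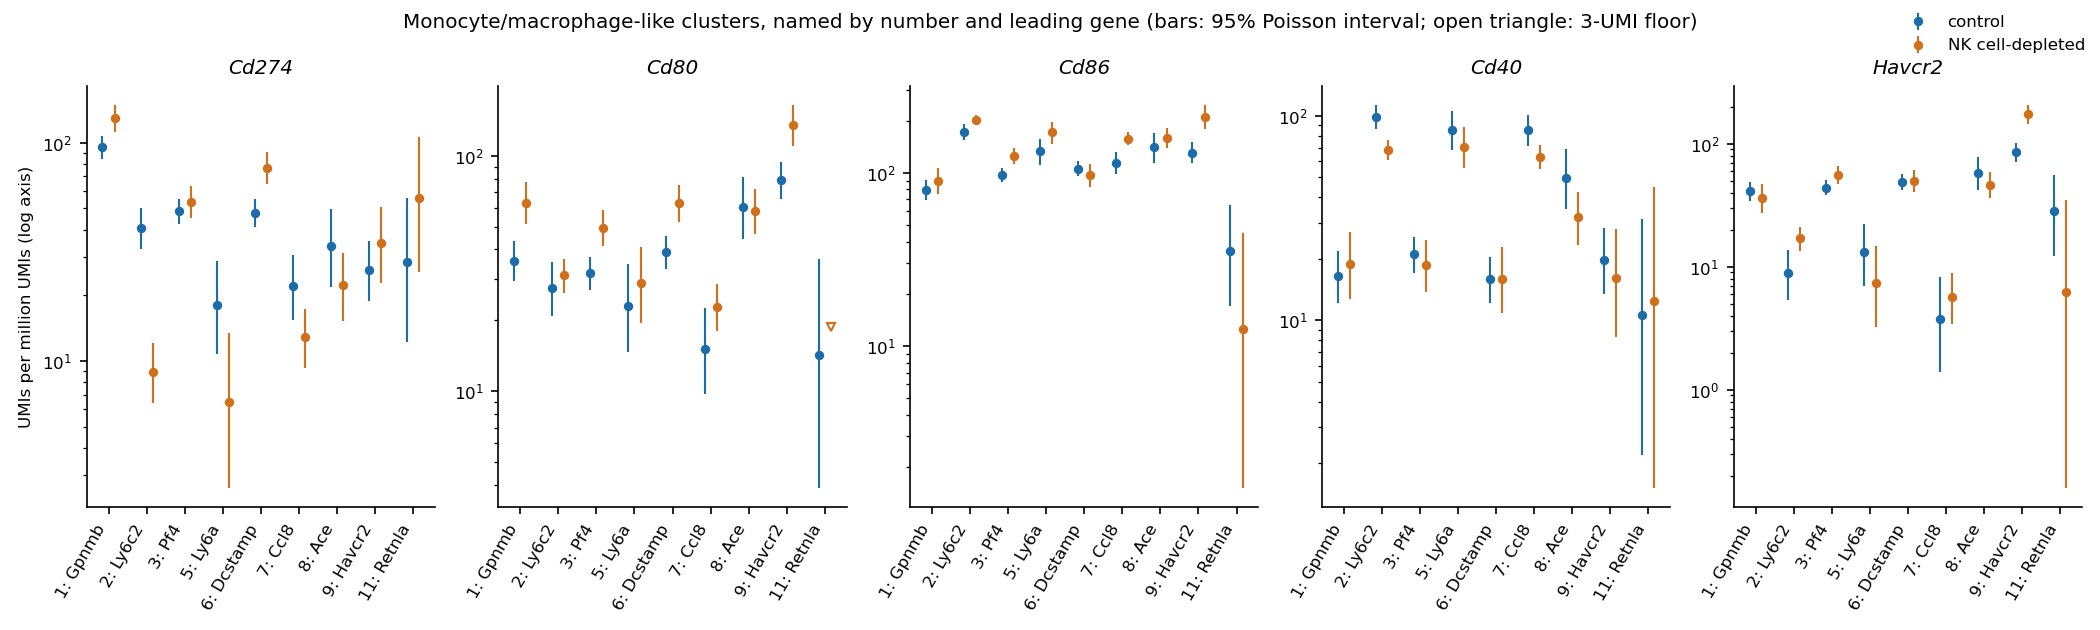
CPM of *Cd274*, *Cd80*, *Cd86*, *Cd40* and *Havcr2* in the monocyte/macrophage-like clusters of each library, each cluster named by its leading gene, with exact 95% intervals for counting error. *Cd274* lies at 40.5 against 8.92 CPM in the *Ly6c2*-led cluster and at 47.7 against 76.8 CPM in the *Dcstamp*-led cluster, in control against NK cell-depleted tumors.

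*Cd80* and *Cd86*, both ligands of CD28 and CTLA-4, were lower in control in most clusters. Over the class *Cd80* was at 36.3 CPM in control and 44.7 CPM in NK cell-depleted tumors, a ratio of 0.81 (0.73 to 0.90). By cluster it was lower in control in 7 of 8 and called lower in 4, namely cluster 1 (35.9 against 63.3 CPM), cluster 3 (31.7 against 49.5 CPM), cluster 6 (39.1 against 62.9 CPM) and cluster 9, led by *Havcr2* (78.6 against 135 CPM). With equal cluster weights its log2 ratio went from -0.30 to -0.47. *Cd86* was at 111 CPM in control and 154 CPM in NK cell-depleted tumors over the class, a ratio of 0.72 (0.68 to 0.77). It was lower in control in 7 of 8 clusters, with 5 intervals below 1, and called in cluster 9 alone, at 130 against 210 CPM (0.62, 0.50 to 0.77).

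*Cd40* was at 37.6 CPM in control and 44.3 CPM in NK cell-depleted monocyte/macrophage-like cells, a ratio of 0.85 (0.76 to 0.94). Its direction turned within clusters, where it was higher in control in 6 of 8 with none called. In the *Ly6c2*-led cluster it was at 98.6 and 68.2 CPM (1.45-fold, 1.21 to 1.73), and in the *Ccl8*-led cluster at 85.2 and 63.0 CPM (1.35-fold, 1.08 to 1.69). With equal cluster weights the log2 ratio was 0.35, against -0.24 over the class.

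*Havcr2*, best known as an exhaustion marker of T cells, lay mostly in monocyte/macrophage-like cells here, which held 750 of its 789 control and 600 of its 685 NK cell-depleted UMIs. Its level was higher in cDC1-like cells, the cross-presenting dendritic cells, at 53.5 CPM in 33 control and 63.9 CPM in 51 NK cell-depleted cells (14 and 25 UMIs). The ratio of cDC1-like to monocyte/macrophage-like cells had an interval of 0.74 to 2.29 in control and of 1.19 to 2.77 in NK cell-depleted tumors. In monocyte/macrophage-like cells the level was 39.3 CPM in control and 34.3 CPM in NK cell-depleted tumors, a ratio of 1.15 (1.03 to 1.28) whose log2 turned from 0.20 to -0.27 with equal cluster weights. A *Havcr2* UMI was found in 16.4% and 14.1% of monocyte/macrophage-like cells, against 0.813% and 0.568% of T-like cells at medians of 2080 and 2310 UMIs. After thinning the shares were 7.40% and 6.66% against 0.746% and 0.917%. Cluster 9 is named by *Havcr2*, picked as its leading gene for a high level there, so that this level is no separate finding. *Havcr2* itself was left out of the clustering. Its levels in that cluster were 85.0 CPM in control and 174 CPM in NK cell-depleted tumors, a ratio of 0.49 (0.38 to 0.63). At a resolution of 0.5 the matching broader cluster gave a log2 ratio of -0.42 rather than -1.03, and the call was lost. The *Ly6c2*-led cluster gave 8.84 and 17.0 CPM (0.52, 0.30 to 0.87). *Havcr2* was most like *Tcf7l2* (r = 0.765), *Creg2*, *Gm48065*, *Dock4* and *Tmem119* over the 54 pairs.

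The call of *Ctla4* in monocyte/macrophage-like cells, at 2.78 against 0.973 CPM (2.86-fold, 1.63 to 5.26), rested on very few cells. It came from 19 of 3473 control and 5 of 3041 NK cell-depleted cells, and the 5 highest cells held 66.0% of the 53 control UMIs and all 17 of the others. Without cells that held 3 or more markers of another class its log2 ratio fell from 1.49 to 0.31 and the call was lost. By cluster, the *Pf4*-led cluster 3 held 26 and 11 of these UMIs, at 5.35 and 4.25 CPM (1.26-fold, 0.60 to 2.82), and no other cluster had enough UMIs. T cell markers summed to 17.5 and 9.68 CPM in this class, with 11 and 10 of 11 detected. The remaining receptors were near the detection limit there, at 8 and 15 UMIs for *Pdcd1*, 19 and 9 for *Lag3* and 0 for *Tigit* in both libraries.

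**Figure D3:**
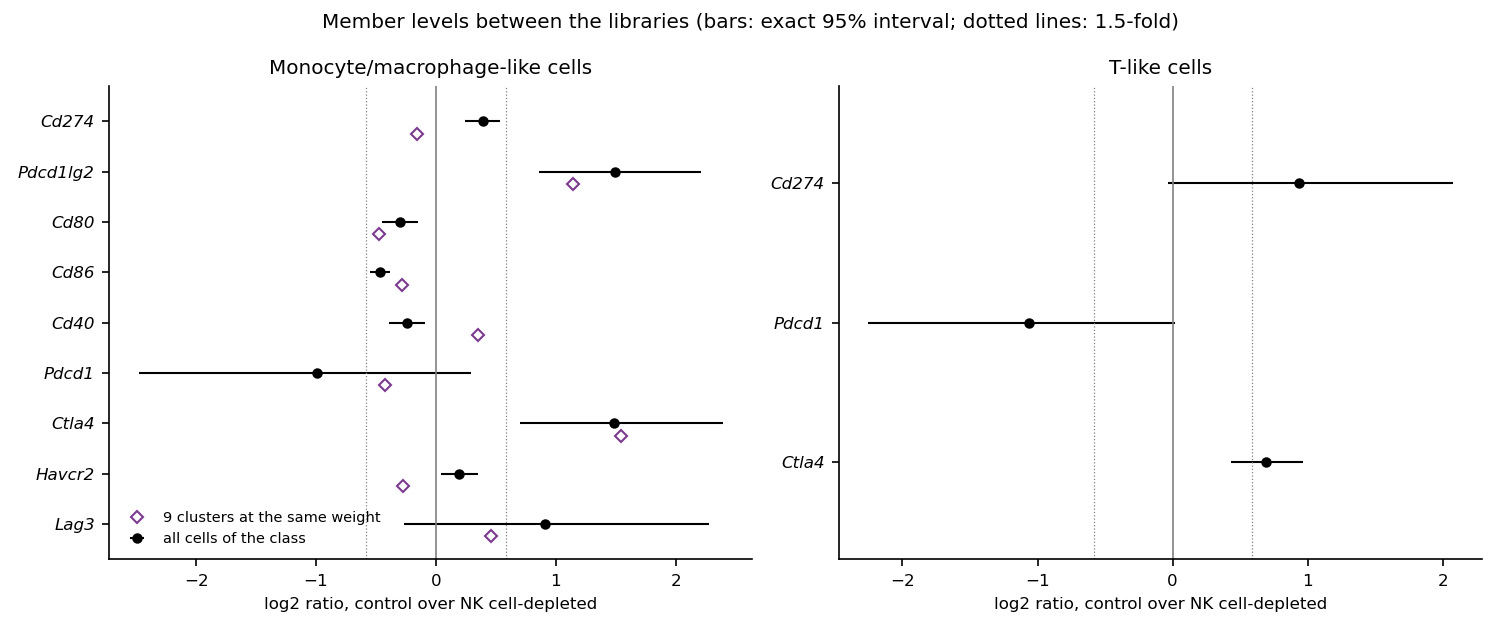
Log2 ratio of CPM in control over NK cell-depleted tumors for each gene with at least 20 UMIs, by cell class, with exact 95% intervals for counting error and lines at 1.5-fold. In monocyte/macrophage-like cells *Pdcd1lg2* (1.49) and *Ctla4* (1.49) lie past 1.5-fold, and *Cd86* (-0.47) and *Cd80* (-0.30) lie below 0 without reaching it.

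Among the dendritic cell classes *Cd86* was the only ligand called, and in cDC2-like cells alone. In cDC1-like cells it held 24 and 53 UMIs, with a ratio of 0.68 (0.40 to 1.12), and in pDC-like cells 10 and 5 UMIs. Of 7 genes with enough UMIs in cDC2-like cells, 3 were called, against 7.89% of all 8367 genes. *Cd86* was at 81.1 CPM in control and 135 CPM in NK cell-depleted tumors (101 and 247 UMIs), a ratio of 0.60 (0.47 to 0.76). It was called lower in control in 3 of the 4 cDC2-like clusters, at 58.9 against 117 CPM in cluster 14, 49.0 against 139 CPM in cluster 17 and 128 against 195 CPM in cluster 19. *Havcr2* was at 7.23 and 20.2 CPM (9 and 37 UMIs, ratio 0.36, 0.15 to 0.75), and 27 of the 37 lay in cluster 19, led by *Ifitm1*. *Lag3*, which binds major histocompatibility complex class II, was at 15.3 and 6.02 CPM (19 and 11 UMIs, 2.54-fold, 1.15 to 5.90), and no cDC2-like cluster had enough UMIs for a ratio of its own. The class differed in make-up, as cluster 21 held 68 of 229 control and 32 of 288 NK cell-depleted cells, and cluster 14 held 60 and 117.

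Migratory dendritic cell-like cells held the highest *Cd274* and *Cd40* of the named classes and yet gave no call among 5 genes with enough UMIs, where 11.8% of all 3964 genes were called. They fall below 50 cells in the NK cell-depleted library and are described because of these levels. *Cd80* was at 165 and 137 CPM, *Cd86* at 132 and 166 CPM, and every ratio lay between 0.80 and 1.25 with an interval that held 1. Neutrophil-like cells also gave 0 calls among 3 genes, against 9.94% of all 4869 genes.

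*Lag3* was highest in pDC-like cells, the plasmacytoid dendritic cells that make type I interferon. It reached 158 CPM in control and 251 CPM in NK cell-depleted tumors from 26 and 18 UMIs, in only 32 and 14 cells. A *Lag3* UMI was found in 16 and 8 of them, at medians of 4940 and 5016 UMIs, and in 18.8% and 35.7% after thinning, against 0.432% and 0.296% of monocyte/macrophage-like cells at medians of 5033 and 5389 UMIs. In control tumors this class was apart from the next in the order of *Lag3* levels. The ratio of 0.63 (0.33 to 1.22) held 1. T-like cells gave 6 and 1 *Lag3* UMIs.

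Receptors on T cells were few at day 4, apart from *Ctla4*. T-like cells held 357 *Ctla4* UMIs in control and 173 in NK cell-depleted tumors, or 678 and 419 CPM, 1.62-fold higher in control (1.35 to 1.95). It was the 1 gene called among 3 with enough UMIs, where 11.8% of all 5860 genes were called, 6.88% higher and 4.91% lower in control. A *Ctla4* UMI was found in 31.7% and 27.3% of T-like cells, and in 35.1% and 18.3% after thinning, against 0.547% and 0.164% of monocyte/macrophage-like cells at medians of 5033 and 5389 UMIs. Monocyte/macrophage markers summed to 1310 CPM in control and 571 CPM in NK cell-depleted T-like cells, with 22 and 19 of 23 detected, and their part in the result was not tested. The call was lost when cells with 3 or more markers of another class were left out, without upper limits on depth, with a stricter filter, with cells called individually from markers and at 2-fold.

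The higher class level of *Ctla4* did not hold within the T-like clusters. In cluster 16, led by *Ctla4*, *Ikzf2*, *Icos* and *Foxp3*, the genes of regulatory T cells, *Ctla4* was at 1543 CPM in control and 1588 CPM in NK cell-depleted tumors, a ratio of 0.97 (0.77 to 1.24). *Ctla4* was left out of the clustering and was picked as a leading gene of that cluster by its level there. Cluster 18, led by *Cxcr6*, *Il17a* and gamma-delta receptor genes, gave 163 and 460 CPM, called lower in control (0.36, 0.22 to 0.56). Cluster 15, led by the naive T cell genes *Lef1* and *Tcf7*, gave 77.5 and 129 CPM (0.60, 0.24 to 1.34). Cluster 16 made up 109 of 246 control (44.3%) and 30 of 176 NK cell-depleted T-like cells (17.0%) and held 87.7% and 53.2% of their *Ctla4* UMIs, whereas cluster 15 made up 21.1% and 61.9% of the cells. The difference over the class thus cannot be told apart from its make-up.

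T-like cells were also split by the lineage markers of each cell, and a regulatory T cell was one with a *Foxp3* UMI. Cluster 16 had 109 control and 30 NK cell-depleted cells, more than had such a UMI. The other groups thus also held cells of that cluster, whose share differed between the libraries. In 30 control and 16 NK cell-depleted regulatory T cells *Ctla4* was at 2348 and 1938 CPM (1.21-fold, 0.91 to 1.63), and 86.7% and 87.5% of them held a UMI. In 49 and 50 other CD4 T cells it was at 584 and 324 CPM (1.80-fold, 1.20 to 2.75). In 38 and 24 CD8 T cells it was at 180 and 162 CPM, with overlapping intervals. In 27 and 10 gamma-delta T cells it was at 105 and 76.6 CPM from 7 and 2 UMIs (1.37-fold, 0.26 to 13.5), too few to set beside the ratio of cluster 18. In the 102 and 76 T-like cells without such markers it was at 536 and 314 CPM (1.71-fold, 1.21 to 2.44). The part of cluster 16 cells in this ratio and in that of the other CD4 T cells was not tested. The genes most like *Ctla4* were *Trac* (r = 0.908), *Cd3e*, *Cd3d*, *Slamf1* and *Cd4*.

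**Figure D4:**
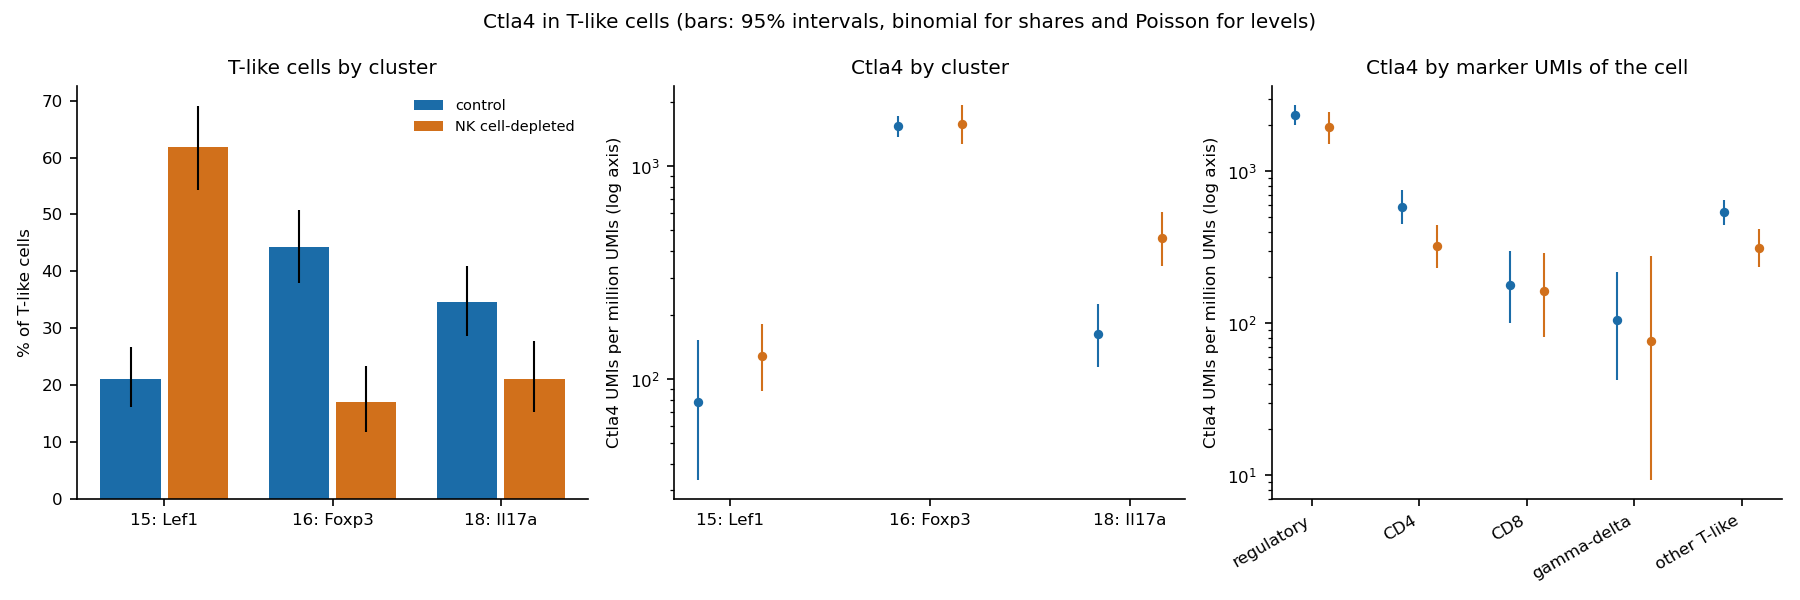
*Ctla4* in T-like cells of the control and NK cell-depleted library, with exact 95% intervals for counting error. Panels give the share of T-like cells in each cluster, *Ctla4* CPM by cluster, and *Ctla4* CPM by lineage markers of the cell. The *Ctla4*-led cluster 16, marked by *Foxp3* on the axis, lies at 1543 and 1588 CPM and holds 44.3% of control against 17.0% of NK cell-depleted T-like cells.

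*Ctla4* was also found outside the named lymphocytes, in the unnamed cluster 30 of dividing cells that held both NK and T cell markers. Its 32 control cells held 26 UMIs (120 CPM) and its 7 NK cell-depleted cells 58 UMIs (1123 CPM), so that these 7 cells carried 58 of the 256 *Ctla4* UMIs of their library. NK and T cell markers summed to 5919 and 1290 CPM in the control cells and to 135 and 3852 CPM in the NK cell-depleted cells of this cluster. The control NK-like cells held 29 *Ctla4* UMIs (24.8 CPM).

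*Pdcd1* was sparse. T-like cells gave 12 UMIs in control and 20 in NK cell-depleted tumors, or 22.8 and 48.4 CPM, a ratio of 0.47 (0.21 to 1.01) that was not called. A UMI was found in 11 of 246 and 10 of 176 cells. Gamma-delta T cells held 7 and 9 of these UMIs, in 27 and 10 cells, and CD8 T cells held 0 in both libraries. These were 38 and 24 shallow cells, with medians of 2049 and 2792 UMIs. By the exact interval a count of 0 allows up to 9.25% and 14.2% of such cells to hold a UMI. That sets no limit on the cells that express the gene. *Cd274* itself was found in T-like cells at 57.0 and 29.0 CPM (30 and 12 UMIs), with an interval of the ratio from 0.98 to 4.21.

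A wider list of 38 partners and relatives of these genes was read in the same way. In monocyte/macrophage-like cells 6 of 31 with enough UMIs were called, 3 in each direction, against 9.05% of all genes in the class. These are values over the class, and of its clusters only the *Ly6c2*-led one was read for this list. *Tnfrsf9*, which encodes the costimulatory receptor 4-1BB, was at 26.1 CPM in control and 9.62 CPM in NK cell-depleted tumors (2.71-fold, 2.27 to 3.25). *Tnfrsf4* (OX40, 2.38-fold) and *Tnfrsf18* (GITR, 1.65-fold) were higher too. *Timd4*, a receptor for dying cells, was at 0.367 and 1.32 CPM (ratio 0.28), *Tnfsf18*, the ligand of GITR, had a ratio of 0.40 and the inhibitory receptor *Btla* one of 0.49. In the *Ly6c2*-led cluster *Btla* leaned the other way, at 6.51 and 4.25 CPM (ratio 1.53, 0.72 to 3.19), and was not called. *Tnfrsf9* held 2 and 1 UMIs there, and *Tnfrsf4*, *Tnfrsf18*, *Tnfsf18* and *Timd4* also had too few for a ratio.

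T-like cells gave 7 calls among 19 genes of that list, 6 higher and 1 lower in control, against 11.8% of all genes in the class. With the stricter filter of at least 1000 UMIs and at most 5% mitochondrial UMIs, 2 calls were left. *Tnfrsf9* was at 175 and 70.2 CPM (2.49-fold, 1.62 to 3.92), *Fgl2*, a secreted effector of regulatory T cells, at 154 and 70.2 CPM and *Cd48* at 177 and 89.5 CPM. Both are also myeloid transcripts, at 180 CPM for *Fgl2* and 108 CPM for *Cd48* in control monocyte/macrophage-like cells, and the monocyte/macrophage markers in T-like cells moved with them, from 1310 CPM in control to 571 CPM. Their part in these calls was not tested. *Cd96*, a receptor that shares its ligand with TIGIT, was at 43.7 and 89.5 CPM (0.49, 0.28 to 0.84). *Tnfrsf4*, at 203 and 111 CPM, is among the leading genes of cluster 16, whose share of T-like cells differed.

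Dendritic cells gave further calls from the list. In cDC2-like cells 4 of 20 were called, against 7.89% of all genes, with *Pilra* (2.32-fold), *Entpd1* (1.85-fold) and *Cd200r1* (1.69-fold) higher in control, and *Pvr*, a ligand of TIGIT, lower at 52.2 against 105 CPM (ratio 0.50). In migratory dendritic cell-like cells 5 of 14 were called, against 11.8% of all genes. *Tnfrsf9* (220 against 108 CPM) and *Lgals3* were higher in control, whereas *Fgl2* (228 against 518 CPM), *Pvr* (93.5 against 176 CPM) and *Cd200* were lower. Neutrophil-like cells gave 1 call among 15, *Lgals3* at 446 against 189 CPM, where 9.94% of all genes were called. The *Ly6c2*-led cluster gave 2 among 21, *Cd200r1* (2.19-fold) and *Fgl2* (1.70-fold), both higher in control, where 8.44% of all genes were called. The counts in neutrophil-like cells and in this cluster were near those shares.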

How the data were processed

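Leukocytes of 1 control and 1 NK cell-depleted library of pooled *Ptgs*-deficient melanomas were used as deposited. The authors made UMI counts per gene and cell with Cell Ranger (3.0.2 in the file headers) on mm10; a log2(CPM + 1) table they also deposited was not used. Kept cells had 500 to 15000 UMIs, from 200 to 4000 detected genes and no more than 10% of UMIs from mitochondrial genes. Clusters came from 2000 variable genes, 15 principal components and Leiden clustering at resolution 1 (scikit-learn 1.9.0, igraph 0.11.9, leidenalg 0.10.2). The 10 genes, the wider list of 38 and a set of interferon genes were left out of the variable genes. Lymphoid clusters and dendritic clusters were each pooled and clustered again at resolution 1. Classes were named from marker lists (131 markers in 14 lists), and a cluster with weak or mixed markers stayed unnamed. Scrublet called 41 (0.775%) and 31 (0.688%) cells as doublets, which were kept in the main values and left out in an alternative. UMIs were summed per class and library (scipy 1.17.1), log2 ratios had 0.5 UMI added, and intervals were exact Poisson, binomial or conditional binomial ones, with a floor of 3 counts for 0. The intervals were tested on simulated data. Named were all 10 genes in classes of 50 cells or more, up to 3 called list genes in each direction, and the 5 genes most like each; Lag3 in pDC-like, Cd80 in eosinophil-like, Ctla4 in unnamed and all in migratory dendritic cell-like cells were named after their values were seen. Genes, lists and tests were chosen with earlier results of these data known. Alternatives were other filters, scalings, thinning to 2000 UMIs, resolutions 0.5 and 2, classes called individually from markers, doublets, cluster weights, minimum UMIs and fold.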

Additional observations from a re-analysis of the deposited data

Results flagged for a closer look

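*Cd274* did not differ between the 2 libraries in the same direction in all monocyte/macrophage-like clusters. Its log2 ratio of control over NK cell-depleted was 2.17 in cluster 2, led by *Ly6c2*, and -0.69 in cluster 6, led by *Dcstamp*, so that the only library of each group moved in opposite directions in these clusters. The difference between the clusters was not tested.

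*Cd80* was also found in cells of more than 15000 UMIs or 4000 genes, which no comparison used. It was at 30.0 CPM (26.6 to 33.6) in 353 such cells of NK cell-depleted tumors and at 20.7 CPM (17.3 to 24.7) in 212 of control tumors.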

How the results depend on the processing

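With 1 library per group, no library could be left out. No paired analysis was possible because the groups share no replicate numbers beyond 1 library each. Depth limits what can be said of *Pdcd1*, *Lag3* and *Tigit*, which gave few UMIs. The number of genes called in monocyte/macrophage-like cells went from 2 to 1 with thinning, without cells of mixed markers and without the 5 highest cells. In T-like cells it went from 1 to 0 without upper limits, with the stricter filter (at least 1000 UMIs, at most 5% mitochondrial), with cells called individually, without mixed cells and at 2-fold, and to 2 with thinning. Of the wider list, 10 in place of 6 genes were called in monocyte/macrophage-like cells by the mean over cells and 3 with at least 50 UMIs, and in T-like cells 2 in place of 7 with the stricter filter and 3 at 2-fold. Ligand and *Cd40* UMIs in myeloid cells, 97.0% and 98.8% in control and NK cell-depleted tumors, were 95.6% and 95.5% without upper limits, 98.1% and 99.7% with the stricter filter, 95.6% and 98.4% with thinning, and 94.9% and 97.3% with cells called individually. Receptor UMIs in T-like, NK-like and B-like cells, 30.5% and 19.0%, were 22.8% and 13.3% with the stricter filter. They were 34.0% and 25.8% without mixed cells. In control they were 44.0% with thinning. In NK cell-depleted tumors they were 23.8% without upper limits and 24.5% with cells called individually. In monocyte/macrophage-like cells the log2 ratio of *Ctla4* (1.49) was 0.62 with thinning, 3.04 without Scrublet calls, 0.31 without mixed cells and 5.08 without the 5 highest cells, a value set by the 0.5 UMI added, since 0 NK cell-depleted UMIs were left, and no bound. That of *Cd274* (0.39) was 0.67 at resolution 2. Equal cluster weights gave -0.16 for *Cd274*, -0.47 for *Cd80*, -0.28 for *Cd86*, 0.35 for *Cd40* and -0.27 for *Havcr2*, which by construction takes out the difference in cluster shares; the cause of the other shifts was not tested. Added after the data were seen, the matching broader clusters at resolution 0.5 gave 1.48 for *Cd274* in the *Ly6c2*-led cluster (2.17) and -0.42 for *Havcr2* in the *Havcr2*-led cluster (-1.03), while 6 other settings gave 1.86 to 2.54 and -1.37 to -1.01.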

Other observations

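Interferon-induced genes were read beside *Cd274* after its values were seen. In the *Ly6c2*-led cluster *Cxcl9* was at 57.2 CPM in control and 3.19 CPM in NK cell-depleted tumors and *Gbp2* at 172 and 48.6 CPM, in the direction of *Cd274*. In the *Dcstamp*-led cluster *Gbp4* was at 15.9 and 6.93 CPM and *Ciita* at 233 and 140 CPM, higher in control, whereas *Cd274* there was at 47.7 and 76.8 CPM. Their part in the *Cd274* differences was not tested.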
